A study of Sus scrofa with 4 samples.

Results

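The guidance genes described here encode semaphorins, their plexin and neuropilin receptors, ephrins, Eph receptors, slits and UNC5 receptors. They were chosen by gene symbol (SEMA3 to SEMA7, PLXNA to PLXND, EPHA and EPHB, EFNA and EFNB, NRP1, NRP2, SLIT1 to SLIT3 and UNC5A to UNC5D) and by a minimum of 40 raw counts summed over the 4 libraries. Among the 29884 rows of the count matrix, 60 matched a symbol, and 50 of these reached the minimum: 18 semaphorins, 10 plexins and neuropilins, 8 ephrins, 9 Eph receptors and 5 slits and UNC5 receptors. Just inside the minimum lay SEMA3G with 43 counts and SLIT2 with 44, and just outside it EPHA5 with 37 and SEMA4A with 32. The other genes under it were UNC5D with 31 counts, PLXNB3 with 18, EPHA1 with 15, SEMA5B with 4, SLIT1 with 2, EPHA10 and EPHB1 with 1 each and EPHA8 with 0.

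RNA was sequenced from granulosa cells of pig antral follicles, which nourish the egg cell and make estradiol. Flow cytometry gave the cell cycle phases in a portion of the cells, and the rest were sorted into groups by how many were in G0/G1, that is resting or not yet copying DNA. There are 2 libraries with a high G0/G1 share and 2 with a low one. The labels name no treatment, genotype, breed, age, follicle size, number of follicles or measured G0/G1 share for a library. Whether libraries of 1 group are from different pigs is not stated either, and p-values therefore reflect only the variation among these 4 samples, which could be technical.

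Guidance genes were first described in the growing nervous system, where they steer axons, and they also act in blood vessels and epithelia. Semaphorins are secreted or membrane-bound ligands that signal through plexins, with neuropilins as co-receptors for most secreted class 3 semaphorins. Ephrins are held on the cell surface and bind Eph receptor tyrosine kinases on neighbouring cells, so that both cells receive a signal. Slits bind ROBO receptors, and UNC5 proteins are receptors of netrins. Through small GTPases these systems change the cytoskeleton, adhesion and the sorting of cells into compartments.

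Library totals ran from 27442850 to 32674921 counts. Levels are given in CPM, counts relative to the TMM-scaled library total, where a gene without counts could still have 0.0941 to 0.105 CPM depending on the library, for counting error only. Transcript lengths were not used, so levels are compared between libraries and never between genes. All 10 granulosa markers were detected in each library. In each of these markers the groups did not overlap, with 6 lower and 4 higher in high G0/G1 libraries. Of all genes tested 56.6% did not overlap either, 29.8% lower and 26.8% higher. FSHR, which binds the pituitary hormone FSH, had 22.5 and 26.0 CPM in high and 81.6 and 85.9 in low libraries (log2 fold change -1.79 ± 0.21, SE, edgeR adjusted p = 0.125), and the aromatase gene CYP19A3 had 3986 and 1549 against 1444 and 1142. The 10 summed to 33909 CPM in high replicate 1 and to between 17003 and 20253 in the others. The part of these granulosa differences in the values of guidance genes was not tested. Low replicate 2 stood apart in the summed level of 10 markers of stroma and smooth muscle. The sum was 1624 CPM there, 56.1 in low replicate 1 and 122 and 160 in the high libraries. COL1A1, a fibrillar collagen, stood at 390 CPM in low replicate 2 and between 16.3 and 34.3 in the others. PDGFRA and MYH11 from that list were instead highest in high replicate 2, at 18.6 and 5.37 CPM. They stood at 6.17 and 3.68 CPM in low replicate 2. The 4 theca markers summed to 339 CPM in low replicate 2 and to between 50.2 and 103 elsewhere. Among them only INSL3, a peptide hormone of theca cells, was higher in both low libraries (edgeR adjusted p = 0.169). INSL3 stood at 75.3 and 260.1 CPM there against 17.6 and 30.02 in the high ones. NR2F2 from that list went the other way, at 31.4 and 33.3 CPM in high and 26.98 and 25.9 in low libraries. CYP17A1 and TCF21 overlapped between groups. The 12 endothelial markers summed to 59.6 and 67.9 CPM in the high libraries and to 66.1 and 96.1 in the low ones, of which the receptor gene TIE1 gave 56.5 CPM in low replicate 1. Without TIE1 the other 11 summed to 20.9 and 55.9 CPM in high and 9.57 and 73.8 in low libraries, with 0 counts for PLVAP in both high libraries and for TEK in low replicate 1. Within that list KDR, a receptor of vascular endothelial growth factor, stood at 29.5 CPM in high replicate 2 and between 1.98 and 10.47 in the other libraries. The 12 leukocyte markers summed to between 1.41 and 9.64 CPM, with CD79B at 0 in all libraries. The sums ranged from 6.43 to 11.5 CPM for 6 oocyte markers, nearly all of it GDF9, from 0.0335 to 0.173 for 5 markers of neurons and glia, and from 2.72 to 10.57 for 5 of surface epithelium. In such bulk samples fewer cells of a type and less RNA per cell cannot be told apart.

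**Figure D1:**
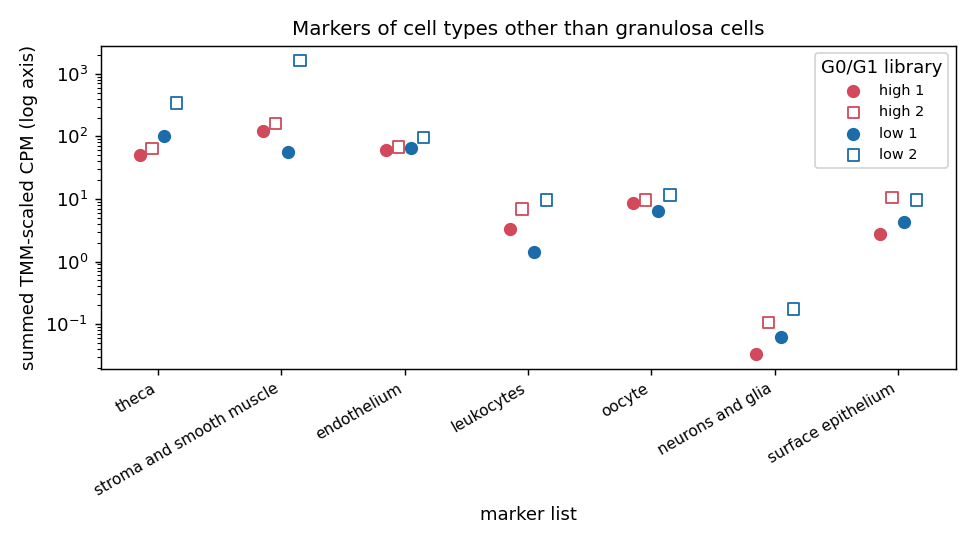
Summed TMM-scaled CPM (log axis) of 7 lists of markers for cells other than granulosa cells, with 1 point per library (red, high G0/G1; blue, low G0/G1; filled, replicate 1; open, replicate 2). Low replicate 2 lies at 1624 CPM for stroma and smooth muscle, against 56.1 to 160 in the other libraries.

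High and low G0/G1 libraries were compared to ask whether guidance genes go with the share of cells in G0/G1. SEMA7A and PLXNA2 were several-fold lower in both high G0/G1 libraries, and EPHB2 with its ligands EFNB2 and EFNB3 stood more than 2-fold lower. SEMA3E and SEMA6A were over 10-fold higher in high G0/G1 cells on average, with most of that level in high replicate 2. Of the 50 genes 49 passed the filter on low counts and were tested, all but SEMA3G. SEMA6B and UNC5A passed through the low G0/G1 libraries alone, so they had to differ, and the main edgeR counts are also given without them. Counts by sign, medians and counts from other fits can include SEMA6B and UNC5A. With edgeR's quasi-likelihood test 0 of 49 had an adjusted p under 0.05, and 0% of all 14352 genes tested did, the smallest adjusted p being 0.125. At an unadjusted p under 0.05 there were 14 of 49 guidance genes, 5 higher and 9 lower, or 28.6% beside 20.7% of all genes tested (9.92% higher and 10.8% lower). Without SEMA6B and UNC5A there were 5 higher and 8 lower of 47.

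By sign alone 23 guidance genes were higher and 26 lower, beside 49.4% and 50.6% of all genes tested. The lower ones include SEMA6B and UNC5A, whose sign the filter fixed. In 13 of them the 2 high libraries exceeded the 2 low ones (26.8% of all genes tested), and in 16 they were under them (29.8%). Together that is 59.2% of the guidance genes, close to the 56.6% over all genes. The median log2 fold change was -0.06 for guidance genes and -0.01 for all genes, so the median of the set lay near that of all genes. The median absolute log2 fold change was 0.67 for guidance genes and 0.47 over all genes tested. In the fit 11 guidance genes were at least 2-fold higher and 9 at least 2-fold lower (22.4% and 18.4%, beside 11.3% and 11% of all genes). Without SEMA6B and UNC5A 7 were at least 2-fold lower, and 14 had both high libraries under both low ones. DESeq2 gave an adjusted p to 45 of these genes and called 12 of them, 5 higher and 7 lower, where it called 11.3% of all genes (5.79% higher and 5.48% lower). Limma-voom called 0, with 15 at an unadjusted p under 0.05 (21.8% of all genes), UNC5A among them. With high replicate 1 left out, edgeR called 5 of 50, namely SEMA7A and PLXNA2 lower and SEMA3E, SEMA6A and UNC5C higher, where 6.33% of all genes were called. Without each of the other libraries it called 0. DESeq2 without high replicate 1 called 14 of 43 (17.2% of all genes), without high replicate 2 it called 6 of 42 (6.79%), without low replicate 1 it called 5 of 42 (3.53%) and without low replicate 2 it called 4 of 44 (2.65%).

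**Figure D2:**
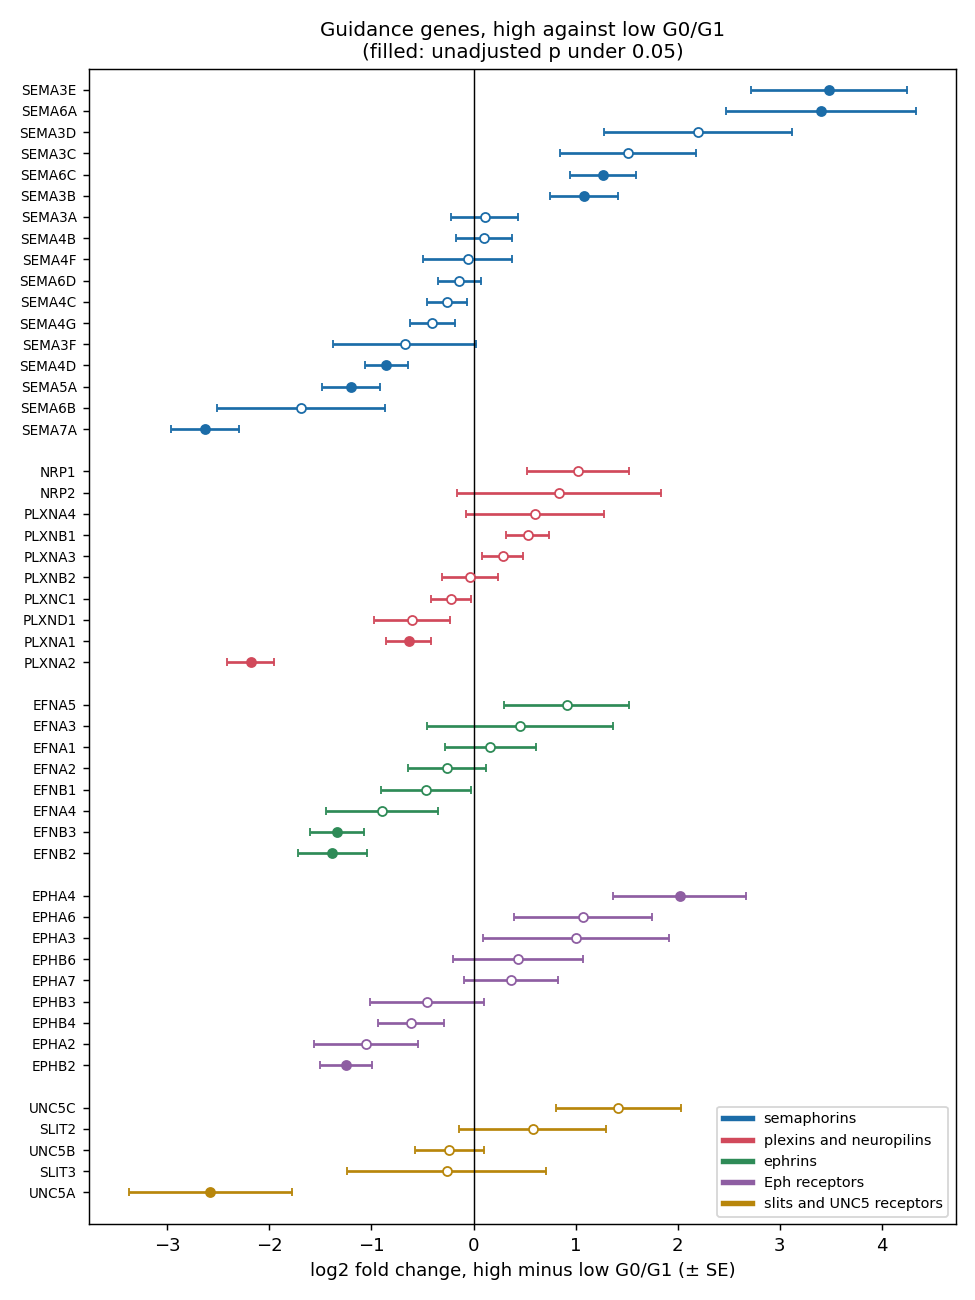
Log2 fold change of high minus low G0/G1 (x axis) for the 49 guidance genes tested, grouped by role, with bars for the standard error. Filled points have an unadjusted p under 0.05. SEMA6B and UNC5A passed the filter through the low libraries alone, which fixed their direction. SEMA3E at 3.48 and SEMA7A at -2.63 are the extremes, and genes of each role lie on both sides of 0.

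Among the semaphorins 8 were higher and 9 lower, with SEMA6B, whose direction the filter fixed, among the lower. The median log2 fold change was -0.06, and the sign followed the class in part. SEMA7A (chromosome 7, 59094919 to 59119534 in Sscrofa11.1), a semaphorin anchored to the membrane by a lipid that signals through PLXNC1 and integrins, had 19.1 and 13.3 CPM in high and 121 and 79.4 in low libraries. Both high values were far below both low values, and the groups did not overlap. The log2 fold change was -2.63 ± 0.33 (SE), a 6.18-fold lower level, with an edgeR adjusted p of 0.125 and a DESeq2 adjusted p of 8.6e-09. With 1 library left out it ran from -2.92 to -2.23, and DESeq2 called it without each of the 4 libraries in turn.

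SEMA5A (chromosome 16, 72796453 to 73335974), a transmembrane semaphorin with thrombospondin repeats, stood at 90.3 and 110 CPM in high and 183 and 277 in low libraries. The groups did not overlap, and the highest value was in low replicate 2, the library with the highest sum of stromal markers. The fitted log2 fold change was -1.20 ± 0.28 (SE, edgeR adjusted p = 0.169), and -0.85 without that library. The part of stromal cells in this level was not tested. SEMA4D (chromosome 14, 957074 to 1078522), the transmembrane ligand of PLXNB1, stood at 29.1 and 30.9 CPM in high and 58.3 and 50.2 in low libraries. Each pair of libraries lay close together. This gave a log2 fold change of -0.85 ± 0.21 (SE, edgeR adjusted p = 0.169; DESeq2 adjusted p = 0.0458).

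The other class 4 semaphorins, also membrane-bound, showed small differences. SEMA4C stood at 39.2 and 40.8 CPM in high and 47.5 and 48.4 in low libraries, and SEMA4G at 66.2 and 62.1 against 75.03 and 94.6, in both cases without overlap. SEMA4B, with a log2 fold change of 0.10, and SEMA4F, at -0.06, overlapped between groups. Of the 5 class 4 genes 4 had a negative log2 fold change, with a median of -0.26.

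Class 3 semaphorins, the secreted members, mostly had positive values, with 5 of 6 tested genes higher and a median log2 fold change of 1.30. SEMA3E (chromosome 9, 96682178 to 96941074), which binds PLXND1 without a neuropilin, had 2.78 and 9.37 CPM in high and 0.596 and 0.485 in low libraries. Both high values were above both low ones, and the high libraries differed from each other by 3.37-fold. The log2 fold change was 3.48 ± 0.76 (SE, edgeR adjusted p = 0.162; DESeq2 adjusted p = 5.98e-04), with a range of 2.36 to 4.10 when 1 library was left out. SEMA3D, SEMA3C and SEMA3B, described after their values were seen, were also higher in both high libraries. SEMA3D stood at 6.24 and 18.1 CPM in high and 4.42 and 0.867 in low libraries. SEMA3C stood at 3.32 and 10.8 against 2.16 and 2.77. Both had their highest value in high replicate 2, and without it their log2 fold changes were 1.23 and 0.43, down from 2.20 and 1.51.

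SEMA3B differed from these in having close replicates, at 10.2 and 12.2 CPM in high and 4.96 and 5.58 in low libraries. For SEMA3B the log2 fold change was 1.08 ± 0.33 (SE, edgeR adjusted p = 0.195; DESeq2 adjusted p = 0.0436), and it ran from 0.95 to 1.20 with 1 library left out. SEMA3A, a ligand of NRP1, stood at 107 and 85.1 CPM in high and 114 and 64.9 in low libraries and overlapped. SEMA3F, a ligand of NRP2, was the class 3 gene with a negative log2 fold change, -0.67 ± 0.70 (SE), which was 0.25 without low replicate 2. SEMA3G, not tested, stood between 0.235 and 0.627 CPM.

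Class 6 semaphorins are transmembrane ligands of A-type plexins, and they split. SEMA6A (chromosome 2, 120560095 to 120687597), described after its values were seen, stood at 9.39 and 50.4 CPM in high and 1.66 and 3.99 in low libraries. The groups did not overlap, but the high libraries differed by 5.37-fold, the widest ratio of high replicate 2 over high replicate 1 among the guidance genes. The log2 fold change was 3.40 ± 0.93 (SE, edgeR adjusted p = 0.176; DESeq2 adjusted p = 8.14e-04), and 1.74 without high replicate 2. KDR was likewise highest in high replicate 2, while the endothelial sum was highest in low replicate 2, with or without TIE1. The part of endothelial cells in the result was not tested. SEMA6C (chromosome 4, 98107316 to 98121464) stood at 35.7 and 41.3 CPM in high and 11.9 and 20.0 in low libraries, with a log2 fold change of 1.27 ± 0.33 (SE, edgeR adjusted p = 0.171). SEMA6D overlapped, at 140 and 161 CPM in high and 177 and 155 in low libraries. SEMA6B, near the lower end of detection at 0.201 to 1.25 CPM, was lower in both high libraries, which the filter fixed.

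**Figure D3:**
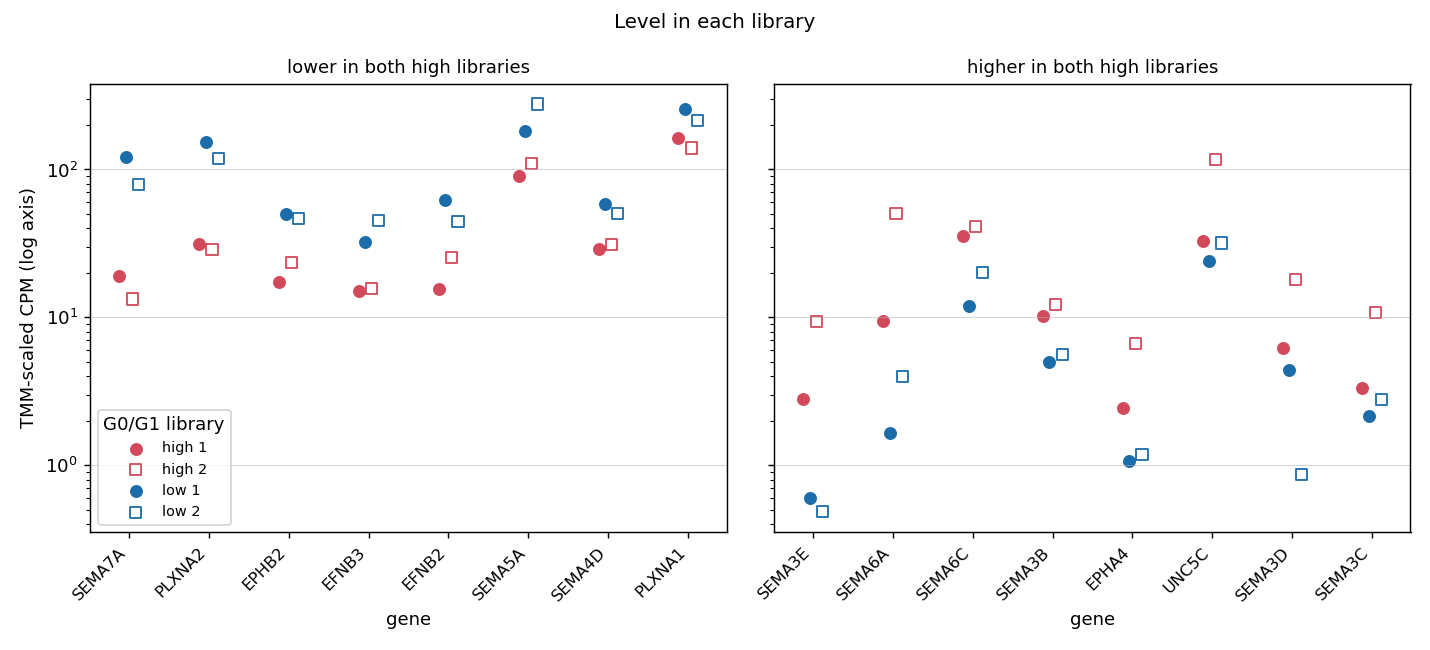
TMM-scaled CPM (log axis) of 16 guidance genes in each library, 8 lower (left) and 8 higher (right) in both high G0/G1 libraries (red, high; blue, low; filled, replicate 1; open, replicate 2), picked after their values were seen. On the left the replicates of a group differ by at most 1.62-fold (EFNB2, high group), with PLXNA2 closer at 31.3 and 28.7 CPM. On the right SEMA6A, UNC5C and SEMA3D spread widely within the high group, while SEMA3B differs there by 1.20-fold.

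Among plexins and neuropilins, the receptors of semaphorins, 5 were higher and 5 lower, with a median log2 fold change of 0.12, and PLXNA2 had the largest change in size. PLXNA2 (chromosome 9, 134584760 to 134800471), a receptor of class 6 semaphorins and, with neuropilins, of class 3 semaphorins, had 31.3 and 28.7 CPM in high and 153 and 119 in low libraries. The spread within each group was small beside the gap between them. In the fit its level was 4.53-fold lower, a log2 fold change of -2.18 ± 0.23 (SE), with an edgeR adjusted p of 0.125, tied with other genes as the smallest, and a DESeq2 adjusted p of 5.98e-10. It ran from -2.33 to -1.93 with 1 library left out, and DESeq2 called it in each case.

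PLXNA1 (chromosome 13, 73054434 to 73098786), a receptor that also serves class 3 and class 6 semaphorins, stood at 162 and 140 CPM in high and 255 and 214 in low libraries. Its log2 fold change of -0.63 ± 0.22 (SE, edgeR adjusted p = 0.212) was not called by DESeq2 (adjusted p = 0.158). PLXNA3 went slightly the other way, at 55.1 and 63.0 CPM in high against 50.3 and 46.7 in low libraries. PLXNA4 overlapped, since high replicate 1 had the lowest value, 5.94 CPM, and high replicate 2 the highest, 23.7. The 4 A-type plexins thus held 2 higher and 2 lower genes.

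PLXNB1 (chromosome 13, 31113910 to 31140133), the receptor of SEMA4D, stood at 126 and 150 CPM in high and 90.1 and 101 in low libraries, with a log2 fold change of 0.53 ± 0.21 (SE, edgeR adjusted p = 0.243). PLXNB2 (chromosome 5, 390347 to 416805) overlapped, at 795 and 625 CPM in high and 845 and 613 in low libraries. In the fit it was at -0.04 ± 0.28 on the log2 scale (SE), and the sign was positive without high replicate 2 and without low replicate 1. PLXNC1, the plexin of SEMA7A, stood at 125 and 130 CPM in high and 157 and 141 in low libraries, a log2 fold change of -0.22 ± 0.20 (SE). The span of PLXNC1 overlaps that of CEP83 in the annotation, so reads of these genes may be shared. PLXND1 (chromosome 13, 68946658 to 68996625), the receptor of SEMA3E, stood at 13.2 and 16.4 CPM in high and 15.7 and 29.3 in low libraries. The PLXND1 log2 fold change of -0.60 was -0.07 without low replicate 2.

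Both neuropilins had positive log2 fold changes. NRP1 (chromosome 10, 56280673 to 56430832), which also binds vascular endothelial growth factor, stood at 20.1 and 36.9 CPM in high and 8.81 and 19.2 in low libraries. The groups were separated only narrowly, by high replicate 1 and low replicate 2, and the log2 fold change was 1.02 ± 0.50 (SE, edgeR adjusted p = 0.306), from 0.52 without high replicate 2 to 1.71 without low replicate 2. NRP2 stood at 0.604 and 2.84 CPM in high and 0.439 and 1.49 in low libraries and overlapped, with a log2 fold change of 0.84 ± 1.002 (SE), and -0.67 without high replicate 2.

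Of the ephrins 3 were higher and 5 lower, with a median log2 fold change of -0.36. All 3 ephrin-B genes, whose proteins span the membrane, had negative values, as did 2 of the 5 ephrin-A genes, whose proteins are lipid-anchored, and a difference between the types was not tested. EFNB3 (chromosome 12, 52970398 to 52976260) stood at 15.03 and 15.7 CPM in high and 32.4 and 45.2 in low libraries. The high libraries were nearly equal, and both lay well below the low ones. The log2 fold change was -1.34 ± 0.27 (SE, edgeR adjusted p = 0.155; DESeq2 adjusted p = 0.00316). EFNB2 (chromosome 11, 74188337 to 74232768), known as a marker of arterial endothelium and a ligand of EPHB4 and EPHB2, stood at 15.6 and 25.3 CPM in high and 62.5 and 44.2 in low libraries. This is a log2 fold change of -1.38 ± 0.34 (SE, edgeR adjusted p = 0.169; DESeq2 adjusted p = 0.0166). The sum of endothelial markers other than TIE1 was lowest in low replicate 1, where EFNB2 was highest, and highest in low replicate 2. Within that list KDR and EMCN were instead highest in high replicate 2, at 29.5 and 6.42 CPM. The part of endothelial cells in the EFNB2 level was not tested.

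EFNB1 (chromosome X, 54947339 to 54961403) set high replicate 2 apart, at 58.5 CPM against 144 in high replicate 1 and 142 and 137 in the low libraries. The EFNB1 log2 fold change was -0.46 ± 0.44 (SE) and 0.05 without that library. Among the ephrin-A genes EFNA5 (chromosome 2, 112533124 to 112821293) stood at 8.55 and 13.2 CPM in high and 8.69 and 2.84 in low libraries, and EFNA4 (chromosome 4, 94730790 to 94735578) at 1.81 and 1.19 against 3.36 and 2.25. The EFNA5 log2 fold change of 0.91 ran from 0.34 without low replicate 2 to 2.00 without low replicate 1. Among ephrin-A genes EFNA4 alone did not overlap between groups (with RLE scaling EFNA1 did not either), with a log2 fold change of -0.90 ± 0.55 (SE, edgeR adjusted p = 0.392). EFNA1, EFNA2 and EFNA3 overlapped, with log2 fold changes of 0.16, -0.26 and 0.45.

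Of the Eph receptors 5 were higher and 4 lower, namely 4 of 5 EphA genes and 1 of 4 EphB genes higher. EPHB2 (chromosome 6, 80649098 to 80849979), a receptor of B-type ephrins, stood at 17.2 and 23.6 CPM in high and 50.2 and 46.6 in low libraries. The low libraries were close together, and the groups did not overlap. The log2 fold change was -1.25 ± 0.25 (SE, edgeR adjusted p = 0.155; DESeq2 adjusted p = 0.00649), with a range of -1.49 to -1.05 when 1 library was left out. EPHB4 (chromosome 3, 8671052 to 8689778), the partner of EFNB2 in vein formation, stood at 61.7 and 35.7 CPM in high and 65.2 and 83.7 in low libraries, a log2 fold change of -0.61 ± 0.33 (SE, edgeR adjusted p = 0.341). EPHB3 overlapped at 1.79 to 4.33 CPM, and EPHB6, a receptor without kinase activity, stood at 0.973 and 0.878 CPM in high and 0.502 and 0.867 in low libraries. The span of EPHB6 overlaps that of TRPV6.

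EPHA4 (chromosome 15, 123350867 to 123501872), which binds both types of ephrin, stood at 2.45 and 6.67 CPM in high and 1.07 and 1.18 in low libraries. The groups did not overlap, and the log2 fold change was 2.02 ± 0.65 (SE, edgeR adjusted p = 0.201; DESeq2 adjusted p = 0.0497), with 1.12 without high replicate 2. EPHA2 (chromosome 6, 75251465 to 75279364), a receptor of ephrin-A ligands common in epithelia, was the EphA gene that was lower, at 3.39 and 1.72 CPM in high and 4.86 and 5.72 in low libraries. For EPHA2 the log2 fold change was -1.05 ± 0.51 (SE, edgeR adjusted p = 0.306). EPHA6 (chromosome 13, 162568835 to 163445722) stood at 0.671 and 1.05 CPM in high and 0.502 and 0.312 in low libraries. EPHA7 and EPHA3 overlapped and had their highest level in high replicate 2, at 22.3 and 2.32 CPM. Without that library their log2 fold changes were negative, at -0.35 and -0.47, so the count of EphA genes higher depended on it.

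Among the slits and netrin receptors UNC5C (chromosome 8, 124149364 to 124533755) stood at 32.6 and 117 CPM in high and 24.0 and 31.8 in low libraries. High replicate 1 was barely above low replicate 2, and high replicate 2 was 3.58-fold above high replicate 1. The log2 fold change was 1.42 ± 0.61 (SE, edgeR adjusted p = 0.267), 2.06 without high replicate 1 (adjusted p = 0.0295) and 0.23 without high replicate 2. UNC5A (chromosome 2, 81061096 to 81126191) had 2 and 5 counts in the high and 23 and 22 in the low libraries. The filter fixed this direction, so no fold or p-value is printed for UNC5A here. Its fold change is drawn in the plots of log2 fold changes. UNC5A also enters the main edgeR count and the limma-voom count at an unadjusted p under 0.05. Because of the filter, neither is read as a sign of a difference. UNC5B (chromosome 14, 74120055 to 74208055), known from endothelium, overlapped at 15.97 and 10.2 CPM in high and 17.1 and 13.8 in low libraries.

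Both slits were low and overlapped between groups. SLIT3 (chromosome 16, 54551536 to 55221427) stood at 1.44 and 1.86 CPM in high and 0.471 and 3.50 in low libraries, and its log2 fold change of -0.26 ± 0.97 (SE) was 1.82 without low replicate 2. The summed stromal markers were likewise highest in that library, and their part in the SLIT3 level was not tested. SLIT2 (chromosome 8, 14758426 to 15149515) stood between 0.251 and 0.562 CPM.

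Set beside each other, known ligands and receptors did not share a direction in every case. SEMA7A was 6.18-fold lower and its receptor PLXNC1 1.17-fold lower in high G0/G1 cells. SEMA6A was 10.6-fold higher while its receptor PLXNA2 was 4.53-fold lower. Of the other A-type plexins PLXNA1 was 1.55-fold lower, and PLXNA3 and PLXNA4 were 1.22-fold and 1.52-fold higher, PLXNA4 with overlap between groups. SEMA4D was 1.81-fold lower and PLXNB1 1.44-fold higher, and SEMA3E was 11.15-fold higher and PLXND1 1.52-fold lower. PLXND1 overlapped between groups, and its log2 fold change was -0.07 without low replicate 2. In the ephrin-B system the signs were mixed. EFNB2 was 2.61-fold, EFNB3 2.53-fold, EPHB2 2.37-fold and EPHB4 1.53-fold lower, and EFNB1 and EPHB3, at log2 fold changes of -0.46 and -0.45, turned slightly positive without high replicate 2. EPHB6, at 0.43, and EPHA4, which also binds ephrin-B ligands, at 2.02, were higher in both high libraries. For EPHB6 the gap was narrow and the level low, with 25 raw counts in high replicate 2 and 25 in low replicate 2. EPHA4 was at 1.12 without high replicate 2. These are fitted fold changes from edgeR, and the difference between a ligand's and a receptor's change was not tested.

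The 2 high libraries were not alike in these genes. In high replicate 2 the level was at least 2-fold above that of high replicate 1 in 11 of 49 genes (22.4%), beside 9.87% of all genes with a count in both, and at least 2-fold below it in 3 (6.12%, beside 9.56%). The widest ratios upward were SEMA6A at 5.37-fold, NRP2 at 4.71-fold, EPHA3 at 4.605-fold, PLXNA4 at 3.99-fold and UNC5C at 3.58-fold. High replicate 2 was the highest of the 4 libraries in 18 of 49 guidance genes (36.7%), beside 29.97% of all genes tested, and high replicate 1 in 5 (10.2%), beside 21.1%. Between the low libraries 6 genes were at least 2-fold higher in low replicate 2 and 2 at least 2-fold lower (12.2% and 4.08%, beside 8.39% and 4.68% of all genes).

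**Figure D4:**
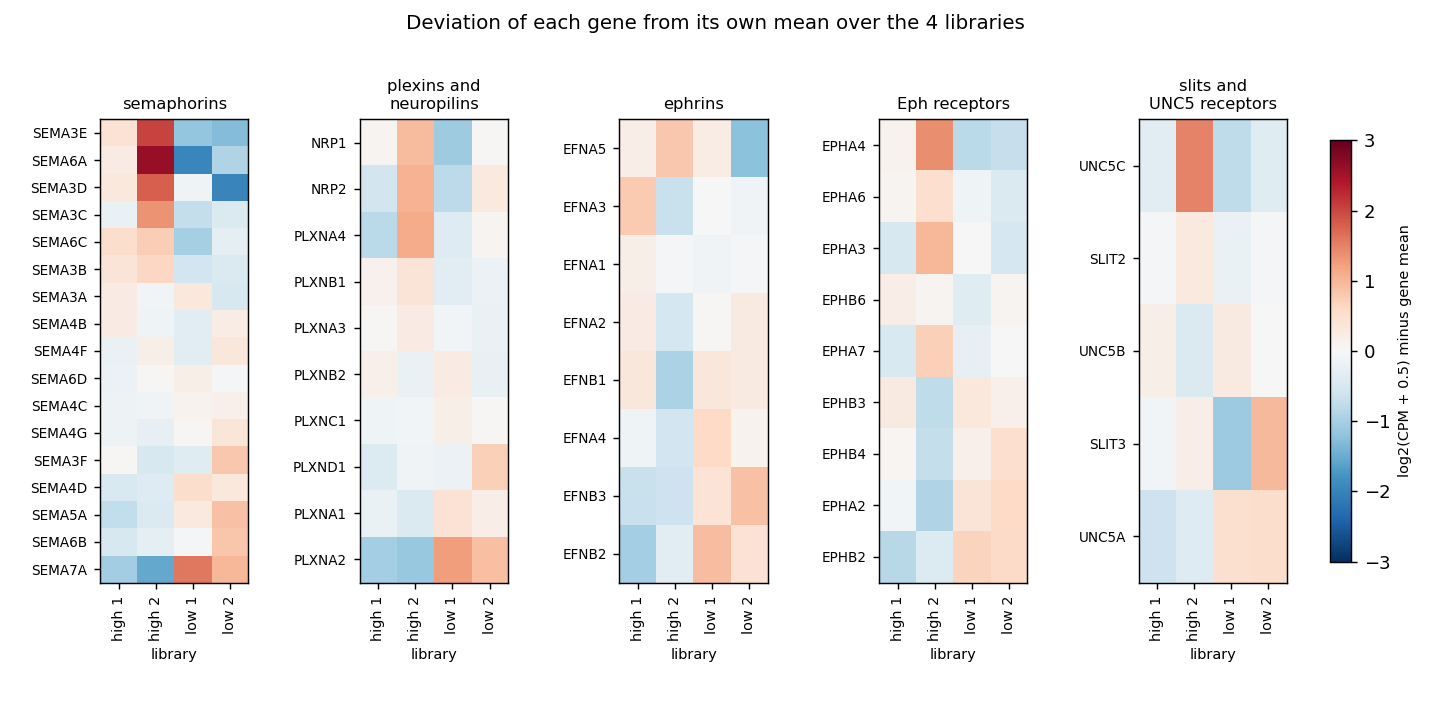
Deviation of log2(CPM + 0.5) from each gene's mean over the 4 libraries, for the 49 guidance genes tested (rows) in each library (columns), by role. SEMA7A, PLXNA2 and EPHB2 are blue in both high and red in both low libraries, while SEMA6A, SEMA3D, EPHA4 and UNC5C are darkest red in high replicate 2.

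**Figure D5:**
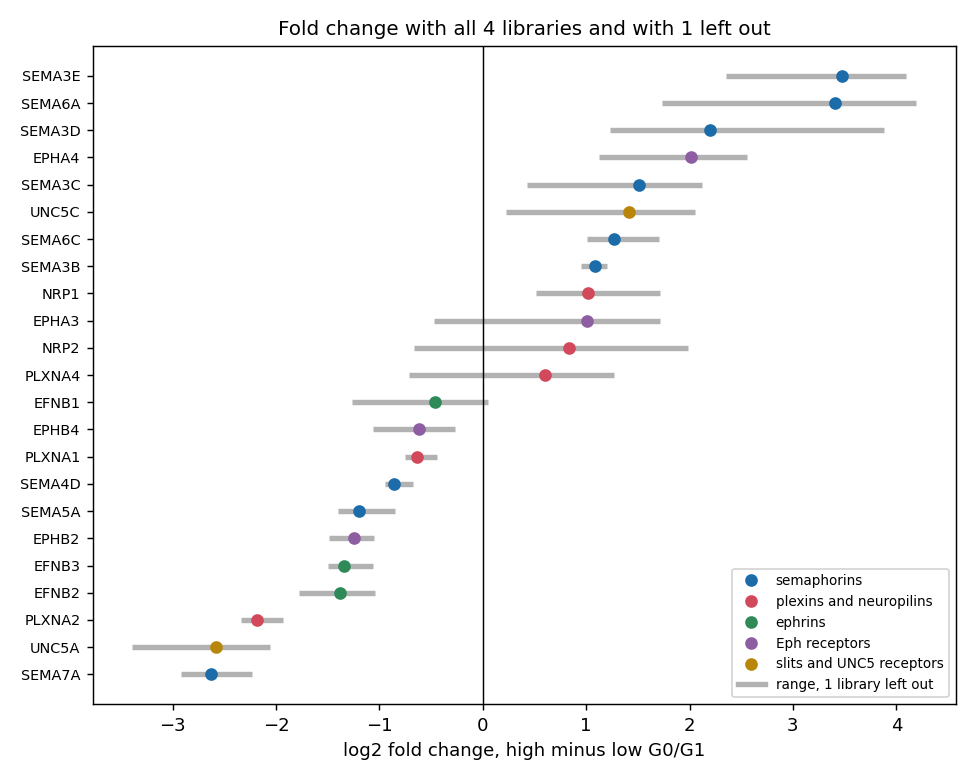
Log2 fold change of high minus low G0/G1 with all 4 libraries (points, coloured by role) and its range when 1 library is left out (grey bars), for 23 genes with an unadjusted p under 0.05 or named for their spread. The bars of SEMA7A (-2.92 to -2.23) and PLXNA2 (-2.33 to -1.93) are short beside their distance from 0, and those of EPHA3, NRP2, PLXNA4 and EFNB1 cross 0. UNC5A passed the filter through the low libraries alone, which fixed its direction.

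Several guidance genes lie close together in the genome. SEMA3D, SEMA3A, SEMA3E and SEMA3C lie within 4.15 Mb of chromosome 9 (95280637 to 99432683), with log2 fold changes of 2.20, 0.11, 3.48 and 1.51. On chromosome 13 SEMA3B (32737100 to 32749633) stood higher in high G0/G1 cells while its neighbour SEMA3F (32641376 to 32671231) overlapped between groups. EFNA1, EFNA3 and EFNA4 share 69.1 kb of chromosome 4 (94666457 to 94735578), with log2 fold changes of 0.16, 0.45 and -0.90. In 13 of the 50 genes the annotated span overlaps another gene's, among them SEMA5A, SEMA6A, EPHB2, NRP1 and PLXNB1. Reads may be shared there too.

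Other genes of these pathways were taken from lists of 64 genes, of which 51 were tested. With edgeR's quasi-likelihood test 0 had an adjusted p under 0.05. At an unadjusted p under 0.05 there were 8 higher and 8 lower, beside 9.92% and 10.8% of all genes, and DESeq2 called 5 higher and 2 lower, beside 5.79% and 5.48%. The 8 lower include CRMP1, a collapsin response mediator that passed the filter through the low libraries alone, and without it there were 7. Among the 12 tested netrin and slit receptors, netrins and RGM genes 8 were higher, with a median log2 fold change of 0.40. ROBO2, a slit receptor, stood at 145 and 243 CPM in high and 78.2 and 95.8 in low libraries (log2 fold change 1.16 ± 0.31, SE). RGMA and RGMB, ligands of neogenin, had 1.26 ± 0.40 and 0.79 ± 0.25, and NTN4, a netrin of basement membranes, 1.98 ± 0.71, which ran from 1.31 to 2.78 with 1 library left out. All 4, named for a small p, were higher in both high libraries, as were 26.8% of all genes tested. NTNG1 from the same list was too, while NEO1, NTN1 and GPC1 were lower in both. NEO1, the gene of neogenin, stood at 274 and 222 CPM in high and 405 and 323 in low libraries.

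Of 18 tested partners and effectors of semaphorins and plexins 7 were higher and 11 lower, CRMP1 among the lower. DPYSL3, a collapsin response mediator that links semaphorin signals to microtubules, stood at 2.88 and 2.39 CPM in high and 12.1 and 11.4 in low libraries, a log2 fold change of -2.16 ± 0.36 (SE, edgeR adjusted p = 0.138; DESeq2 adjusted p = 1.95e-05). FYN, a Src family kinase used by plexins and Eph receptors, went the other way, at 25.5 and 31.7 CPM in high and 8.91 and 7.84 in low libraries (1.77 ± 0.27, SE, edgeR adjusted p = 0.129). Lower in both high libraries were also FARP1, an exchange factor bound to A-type plexins, with -0.99 ± 0.22, and RND1, a GTPase that binds plexins, with -1.03 ± 0.28. Of 17 Eph and ephrin effectors 11 were higher and 6 lower, with TIAM1, an activator of RAC1, at -1.66 ± 0.61 (-2.54 to -1.12 with 1 library left out), ITSN1, an endocytic scaffold that acts with EPHB2, at -0.66 ± 0.26, the adaptor NCK2 at 0.70 ± 0.31 and the kinase ABL1 at 0.61 ± 0.32. In the slit and ROBO list of 4 genes SRGAP2 had -1.25 ± 0.48 (-2.12 to -0.72 with 1 library left out), and SRGAP1 and ENAH overlapped, with 0.066 ± 0.55 (-1.03 to 0.68) and 0.04 ± 0.25.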

How the data were processed

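RNA from 4 granulosa cell libraries, 2 per group, was sequenced. The authors deposited 1 table of whole-number raw counts per gene symbol. Per the submitters' processing notes, the aligner was HISAT2 and the build Sscrofa11.1. For the counter, annotation release, strand setting and filters the sources used here give nothing, and reads of overlapping genes may be shared. Depth is 27442850 to 32674921 counts per library. Columns were matched to samples by title. Groups follow the labels, and replicate numbers follow accession order and pair nothing.

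All genes were fitted in R 4.3.3 with edgeR 4.0.16 (low genes removed by filterByExpr at min.count 10 and min.total.count 15, TMM, glmQLFit and glmQLFTest, no covariate, Benjamini-Hochberg over 14352 genes, threshold 0.05). Log2 fold changes are high minus low. Each SE was taken as the size of the log2 fold change divided by the square root of F. The script was tested on simulated data. RLE scaling, DESeq2 1.42.0, limma-voom (limma 3.58.1), no filter and leaving out each library were the alternatives. With 1 library left in a group, it is assumed to vary like the other group's. DESeq2 left the adjusted p open for 4 guidance genes. Coordinates are RefSeq gene spans of Sscrofa11.1, and all 50 symbols matched. No sequences are shown.

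The genes and lists were chosen with earlier results of these data known. Named by rule are, in each role, the 5 genes with the smallest unadjusted p and the 2 with the highest mean CPM, 27 in all, and 7 more were added after their values were seen. From each pathway list the 4 genes with the smallest p at an average log2 CPM of 1 or more are named.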

Additional observations from a re-analysis of the deposited data

How the results depend on the processing

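No paired analysis was made, because the labels carry no replicate numbers that join libraries of different groups. The sample titles carry codes, and those of high replicate 2 and low replicate 2 share a first letter. What these codes mean is not stated, and they were not interpreted. Changing the scaling to RLE moved no count of guidance genes by more than 1.5 times. DESeq2 called 5 guidance genes higher and 7 lower, and 5 other pathway genes higher and 2 lower, beside 5.79% and 5.48% of all genes. At an unadjusted p under 0.05 DESeq2 had 10 guidance genes higher, beside 11.6% of all genes. With 1 library left out, edgeR called 0 to 3 guidance genes higher and 0 to 2 lower, had 3 to 12 higher (5.54% to 11.9% of all genes) and 5 to 11 lower (4.81% to 15.2%) at an unadjusted p under 0.05, and called 0 to 4 other pathway genes higher and 0 to 2 lower. DESeq2 without 1 library was added after seeing the data. The shares of all genes it called in each such fit, in either direction, are given with the guidance genes above. Shares by direction or at an unadjusted p are not given for these fits, so those counts are not read against all genes. Without high replicate 1, high replicate 2, low replicate 1 and low replicate 2 in turn it called 7, 0, 3 and 2 guidance genes higher and 7, 6, 2 and 2 lower. At an unadjusted p under 0.05 it had 11 and 2 higher without the high libraries, and 5 and 4 lower without the low ones. Of other pathway genes it called 11, 1 and 2 higher without high replicate 1, high replicate 2 and low replicate 1, and 5 and 2 lower without the high libraries.

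The median log2 fold change of guidance genes was -0.11 with no filter and ran from -0.25 to 0.077 with 1 library left out. By role that range was -0.26 to 0.018 for semaphorins, -0.39 to 0.28 for plexins and neuropilins, -1.15 to 0.069 for ephrins, -0.27 to 0.52 for Eph receptors and -0.10 to 0.84 for slits and UNC5 receptors. With limma-voom it was 0.25 for Eph receptors and 0.38 for slits and UNC5 receptors. The sign of a median of so few genes thus depended on the library left out.

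The reversals listed first cover the 34 genes named by rule or added later. Signs reversed without high replicate 2 for EFNB1 (0.047 in edgeR and 0.069 in DESeq2), PLXNB2 (0.13 and 0.15), UNC5B (0.052 and 0.073), EPHA3 (-0.47 and -0.45), NRP2 (-0.67 and -0.64) and PLXNA4 (-0.71 and -0.69). They reversed without low replicate 1 for PLXNB2 (0.27 and 0.25) and SEMA6D (0.027 and 0.0045). SLIT3 reversed without low replicate 2 (1.82 and 1.80) and with limma-voom (0.38). The other end of the edgeR range with 1 library left out was -1.26 for EFNB1, -0.24 for PLXNB2, -0.24 for SEMA6D, -0.61 for UNC5B, -1.02 for SLIT3, 1.71 for EPHA3, 1.99 for NRP2 and 1.27 for PLXNA4. In edgeR other guidance genes also changed sign with 1 library left out, namely EFNA2, EFNA3, EPHA7, EPHB3, SEMA3A, SEMA3F, SEMA4B and SEMA4F. Among these EPHA7 was at -0.35 without high replicate 2, and EFNA3 at -1.22 without high replicate 1. The cause of these reversals was not tested. Groups of 2 libraries limit what a test can call, and genes under about 1 CPM rest on few counts.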
